A study of Mus musculus with 6 samples.

Results

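Transcripts of 10 genes associated with monocytes and the macrophages that arise from them were examined in infarcted mouse heart. They were Ly6c2, Plac8, Chil3, Ms4a4c, Ms4a6b, Ms4a6c, Ms4a6d, Ms4a7, Vcan and Nr4a1, taken by symbol from a table of 16205 rows. All 10 were found, and all 10 were among the 14025 genes with a mean value of at least 1 that entered the test. The tissue was myocardium on day 7 after the left anterior descending coronary artery had been tied off, the operation that causes an infarct. Of the 6 libraries, 3 were labelled Itih5 knockdown and 3 wild type, and all 6 came from ligated hearts. The sources used here do not give how the knockdown was made, the strain, age and sex of the mice, or whether each library stands for its own animal. All p-values therefore reflect the variation among these 6 libraries alone, and that variation may be technical. Values are on a scale close to TPM, a measure of transcript abundance corrected for gene length, and are called adjusted TPM below. The read number behind a value is unknown.

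After an infarct, inflammatory monocytes carrying the surface protein Ly6C leave the blood, enter the dying muscle and become macrophages. A smaller patrolling population with little Ly6C depends on the nuclear receptor NR4A1. The MS4A proteins cross the cell membrane several times. Their genes lie in one cluster, and different members mark different blood cells, with MS4A1 (CD20) on B cells and several others on monocytes and macrophages.

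Ly6c2, the gene of the surface protein that defines inflammatory monocytes, has a near-identical neighbour in Ly6c1, which endothelial cells of the heart express strongly. Ly6c2 occupies 75108158 to 75111970 on the minus strand of chromosome 15 (mm10), and Ly6c1 occupies 75044018 to 75048830 on that strand. Bases 1 to 300 of both coding sequences, from GENCODE M21 transcripts, are shown because a read can be given to one gene or the other only where they differ. Each coding sequence is 396 bases long, and 9 bases differ between them, an identity of 97.7%. Capitals mark the 7 differing bases within the part shown, and the longest stretch without a difference is 188 bases.
Ly6c2: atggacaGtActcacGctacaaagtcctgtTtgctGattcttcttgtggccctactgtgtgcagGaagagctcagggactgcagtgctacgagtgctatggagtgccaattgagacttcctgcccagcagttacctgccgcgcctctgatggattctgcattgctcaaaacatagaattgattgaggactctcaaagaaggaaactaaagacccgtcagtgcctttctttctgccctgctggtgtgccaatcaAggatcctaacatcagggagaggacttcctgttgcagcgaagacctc
Ly6c1: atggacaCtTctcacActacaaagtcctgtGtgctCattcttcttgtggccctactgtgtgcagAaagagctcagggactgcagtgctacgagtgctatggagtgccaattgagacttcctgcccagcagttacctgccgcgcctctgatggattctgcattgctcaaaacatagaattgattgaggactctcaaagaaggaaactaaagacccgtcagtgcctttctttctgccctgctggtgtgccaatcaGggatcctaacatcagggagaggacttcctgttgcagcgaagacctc
Of all 50-base stretches in protein-coding Ly6c2 transcripts, 30.8% also occur in a Ly6c1 transcript. The level of Ly6c2 is therefore uncertain where reads were shared between the pair, since Ly6c1 was far more abundant. Chil3 shares 28.5% of its stretches with 2 other genes, and 17.9% with Chil4, the one sharing most. Ms4a4c shares 7.73% with Ms4a4b, Ms4a6b shares 4.14% with Ms4a6c, and Ms4a6d shares 2.69% with Ms4a6b. Plac8, Ms4a7, Vcan and Nr4a1 share none with another annotated gene. For Ms4a6c, 55.4% of the stretches also lie in BE692007, a transcript annotated on the opposite strand of the same locus. Whether counting used strand is not given in the sources used here, so reads of that pair may not have been told apart.

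Of the genes described, Ms4a6b and Ms4a6c also carry closely related DNA before their starts. The 250 bases before each start, from RefSeq on GRCm38.p6, are shown because this pair had the longest shared run of any pair of the 9 genes with a promoter entry. For Ms4a6b the window is chr19:11518309-11518558 on the plus strand, and for Ms4a6c it is chr19:11469118-11469367 on the plus strand. GENCODE M21 begins the Ms4a6b gene at 11516512, so that window precedes the RefSeq start but lies inside the GENCODE gene. Capitals mark the 2 runs of at least 12 identical bases. The longer run has 48 bases, and 84.7% of the 176 aligned bases are identical.
Ms4a6b: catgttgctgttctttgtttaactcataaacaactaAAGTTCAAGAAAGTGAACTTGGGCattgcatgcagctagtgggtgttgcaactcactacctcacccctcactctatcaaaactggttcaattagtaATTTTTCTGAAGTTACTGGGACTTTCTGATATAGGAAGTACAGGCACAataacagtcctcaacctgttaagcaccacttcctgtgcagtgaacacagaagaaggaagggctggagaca
Ms4a6c: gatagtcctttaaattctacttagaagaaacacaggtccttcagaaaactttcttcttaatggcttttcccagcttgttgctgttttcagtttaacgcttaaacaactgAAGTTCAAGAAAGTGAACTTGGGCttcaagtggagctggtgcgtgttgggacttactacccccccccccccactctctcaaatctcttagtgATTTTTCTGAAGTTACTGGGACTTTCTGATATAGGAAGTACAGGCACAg
Between windows of any other 2 genes, the longest identical run was 10 bases. The 12 windows of the 9 genes, some with more than 1 start, were searched on both strands for the PU.1 motif GAGGAAGT, the C/EBP motif TTNNGNAA, the interferon-stimulated response element, the NR4A motif AAAGGTCA and the cyclic AMP response motif TGACGTCA. GAGGAAGT occurred in 2 of the 12 windows, both of Ly6c2 and overlapping each other, and in 2.44% of all 32851 windows. TTNNGNAA occurred in 10 of the 12 windows, which belong to 7 of the 9 genes, and in 36.9% of all windows. Windows of 1 gene can share bases and are not independent. The other motifs were absent from the 9 genes' windows and occur in 2.98%, 1.34% and 1.55% of all windows in the order given. The Ly6c2 window, chr15:75111972-75112221 on the minus strand, is shown with its TTNNGNAA match (opposite strand) and its GAGGAAGT match in capitals, which do not overlap.
Ly6c2 window: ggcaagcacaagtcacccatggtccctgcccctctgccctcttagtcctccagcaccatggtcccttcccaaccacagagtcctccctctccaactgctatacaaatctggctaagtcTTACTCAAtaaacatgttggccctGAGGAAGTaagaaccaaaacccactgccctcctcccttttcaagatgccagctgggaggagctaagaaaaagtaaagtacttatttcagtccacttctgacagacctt

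The libraries themselves differed in ways that bear on these genes. Labelled knockdown replicate 1 held 1078 values above 0 and under 0.2 adjusted TPM, where every other library held 0. It had 212 values of exactly 0, against 731 to 1082 in the others. Its log2 values correlated with those of the other libraries at 0.9475 to 0.9724, against 0.9659 to 0.9839 among the others. Its column sum was also the largest. What set this library apart was not tested. Itih5 was not lower in the libraries labelled knockdown. It was at 18.4, 10.5 and 19.96 adjusted TPM in the labelled knockdown libraries and at 9.73, 13.1 and 17.2 in wild type (replicates 1, 2 and 3), a log2 difference of 0.26 (SE 0.27, limma adjusted p = 0.645). Permuting the labels of its deposited values in full (exact, two-sided) gave p = 0.4, and with 3 libraries in each group no p under 0.1 can be reached. Every direction below follows the labels. All 15 core macrophage genes had values above 0 in every library. Their summed level was 4639 to 9177 adjusted TPM in labelled knockdown libraries and 9673 to 12911 in wild type, and all 15 had a lower mean in the labelled knockdown group (median log2 difference -0.51, or -0.24 without labelled knockdown replicate 1). Heart muscle genes summed to 6579 to 20562 in labelled knockdown libraries and 6250 to 7786 in wild type, highest in labelled knockdown replicate 1. All 10 had a higher mean in the labelled knockdown group (median 0.69, or 0.28 without that library). Endothelial genes summed to 849.8 to 2220 in labelled knockdown libraries and 965 to 1047 in wild type, again highest in that library, with 8 of 8 higher (median 0.48, or 0.16 without it). The part of these differences in tissue makeup in the results below was not tested. In bulk tissue, fewer cells of a type and less RNA per cell cannot be told apart.

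None of the 10 genes passed the test. Their adjusted p-values ran from 0.297 to 0.876 (limma, Benjamini-Hochberg over 14025 genes), and of all genes tested 0.0% passed. The mean was lower in the labelled knockdown libraries for 9 of the 10, where 49.2% of all genes tested had a lower mean. The exception was Nr4a1. The median log2 difference of the 10 was -0.78, beside 0.005 over all genes tested, and it was -0.40 without labelled knockdown replicate 1. At an unadjusted p under 0.05, 5 of the 10 were lower (Plac8, Chil3, Ms4a6b, Ms4a6c and Ms4a6d), where 6.55% of all genes were, and 0 were higher, where 8.29% of all genes were. That count was 3 without labelled knockdown replicate 1 (3.9% of all genes), 2 without wild-type replicate 1 (2.38%) and 1 without wild-type replicate 3 (2.81%). It was 7 without labelled knockdown replicate 3 (8.82%). The 10 genes were chosen with earlier results of these data known, and most of them rise and fall together over the libraries. These counts are therefore descriptions and not a test of the genes as a set. The groups did not overlap, with the labelled knockdown lower, for 3 of the 10, namely Plac8, Ms4a6c and Ms4a6d. Over all genes that share was 9.88%. Leaving out a library cannot make separate groups overlap, so this count could only stay the same or rise, and the counts that follow do not test its stability. It was 7 of the 10 without labelled knockdown replicate 3 (18.3% of all genes) and 6 without wild-type replicate 2 (18.4%). It was 4 without labelled knockdown replicate 2, and stayed at 3 without labelled knockdown replicate 1, wild-type replicate 1 or wild-type replicate 3. The share of all genes also rose each time. Labelled knockdown replicate 1 was the lowest of the 6 libraries for 8 of the 10 genes.

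**Figure D1:**
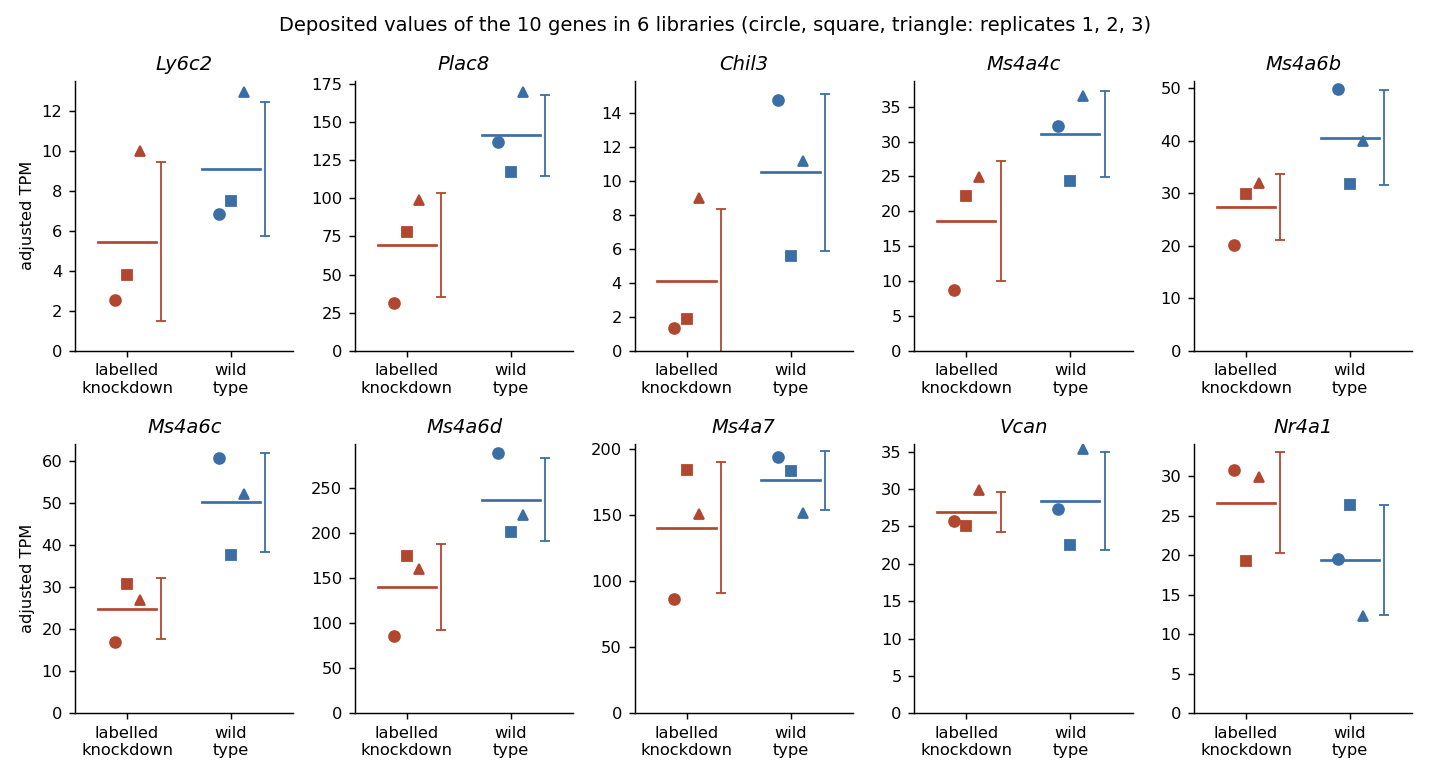
Deposited values (adjusted TPM, linear axes from 0) of the 10 genes in each of the 6 libraries, with lines at group means and bars of 1 SD (n = 3 each, cut off at 0 for Chil3). Labelled knockdown points lie below all wild-type points for Plac8, Ms4a6c and Ms4a6d, and replicate 1 (circle) is the lowest for 8 of the 10.

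**Figure D2:**
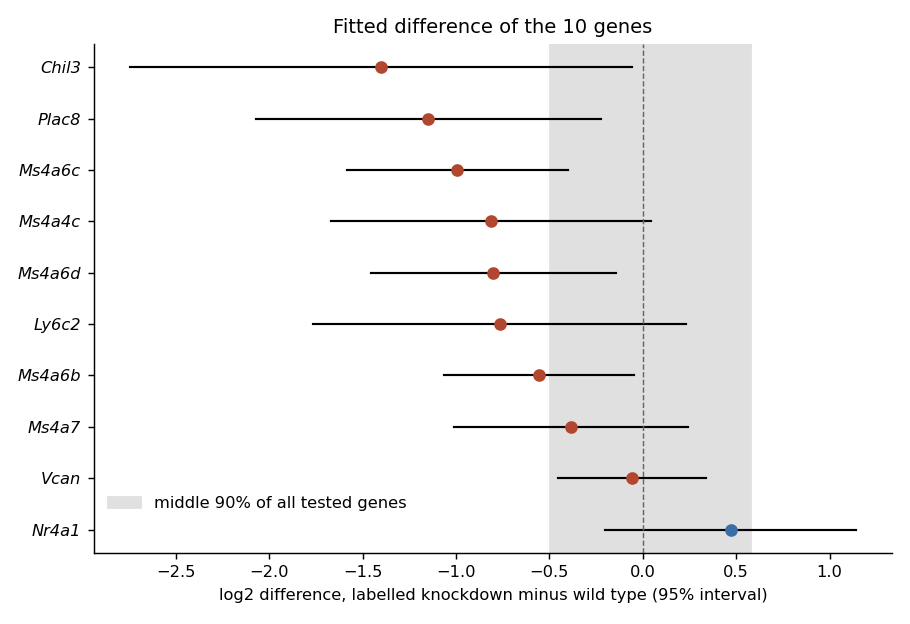
Difference of each of the 10 genes on the log2 scale (labelled knockdown over wild type) with 95% intervals from limma, and a grey band for the middle 90% of all 14025 genes tested (-0.50 to 0.58). The fitted values run from -1.40 for Chil3 to 0.47 for Nr4a1.

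The markers of inflammatory monocytes had lower means with wide intervals. Ly6c2 was at 2.56, 3.81 and 9.98 adjusted TPM in the labelled knockdown libraries and at 6.83, 7.50 and 12.9 in wild type. The groups overlapped, because labelled knockdown replicate 3 lay above 2 of the 3 wild-type libraries. The fitted log2 difference was -0.77 (95% interval -1.77 to 0.23, limma adjusted p = 0.403). It was -0.42 without labelled knockdown replicate 1, -1.24 without labelled knockdown replicate 3 and -0.51 without wild-type replicate 3. These are small values on a rounded scale, between 2.20 and 14.5 rounding steps, and the precision is limited accordingly. Ly6c1, by contrast, was at 893, 291 and 550 in the labelled knockdown libraries and at 381, 340 and 369 in wild type, a log2 difference of 0.53 (SE 0.36), which was 0.14 with labelled knockdown replicate 1 left out and 0.95 with labelled knockdown replicate 2 left out. Ly6c2 thus stood at 0.287%, 1.31% and 1.82% of Ly6c1 in the labelled knockdown libraries and at 1.79%, 2.21% and 3.5% in wild type, with 1 labelled knockdown library inside the wild-type range. B cell genes had the same split among the labelled knockdown libraries, with summed levels of 539, 508 and 2109 in replicates 1, 2 and 3, against 2579, 1968 and 3369 in wild type.

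Plac8 encodes a small cysteine-rich protein abundant in inflammatory monocytes. It lies on chromosome 5 from 100553725 to 100572245 on the minus strand. Its values were 31.6, 77.9 and 98.8 adjusted TPM in the labelled knockdown libraries and 137, 117 and 170.1 in wild type. All 3 labelled knockdown libraries lay below all wild-type libraries, at means of 69.4 ± 34.4 and 141 ± 26.6 (SD, n = 3 each). The log2 difference was -1.15 (SE 0.39, limma adjusted p = 0.301). Without labelled knockdown replicate 1 it was -0.67.

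Chil3 encodes Ym1, a secreted chitinase-like lectin of mouse monocytes, neutrophils and alternatively activated macrophages. It was at 1.36, 1.88 and 8.98 adjusted TPM in the labelled knockdown libraries and at 14.7, 5.57 and 11.1 in wild type. Labelled knockdown replicates 1 and 2 stood at 1.17 and 1.96 rounding steps, and replicate 3 lay within the wild-type range. The log2 difference of -1.40 was the most negative of the 10, and it had the largest error (SE 0.57, limma adjusted p = 0.329). Other chitinase-like genes had smaller differences. Chid1 was at 9.39, 10.6 and 9.98 in labelled knockdown libraries against 12.7, 12.2 and 12.7 in wild type (log2 difference -0.30). Ctbs had -0.25 and Chil1 -0.19, and none of the 3 tested passed (median -0.25, or -0.15 without labelled knockdown replicate 1).

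The 5 genes of the Ms4a cluster were more abundant than Ly6c2, and all 5 had lower means in the labelled knockdown libraries. Ms4a6d was the most abundant of the 10 genes, with a mean of 189 adjusted TPM over the 6 libraries, followed by Ms4a7 at 159. Ms4a6c averaged 37.5, Ms4a6b 34.0 and Ms4a4c 24.9, and the lowest 2 of the 10 were Chil3 and Ly6c2 at 7.28 and 7.27, which do not differ beyond their spread.

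Ms4a6c had the smallest p of the 10. It lies on chromosome 19 from 11469366 to 11482192 on the plus strand. It was at 16.95, 30.8 and 26.9 adjusted TPM in the labelled knockdown libraries and at 60.7, 37.6 and 52.0 in wild type. No labelled knockdown library reached the lowest wild-type library. The log2 difference was -0.99 (95% interval -1.59 to -0.40, limma adjusted p = 0.297) and it was between -1.18 and -0.75 when any 1 library was left out. BE692007, the transcript on the opposite strand that shares its sequence, was at 3.66, 6.75 and 6.99 in labelled knockdown libraries and at 8.81, 6.56 and 8.20 in wild type. Its level was lower than that of Ms4a6c in every library, and its groups overlapped.

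Ms4a6d follows the other 4 along the chromosome, from 11586604 to 11604849 on the minus strand. It was at 86.0, 174 and 161 adjusted TPM in the labelled knockdown libraries and at 289, 202 and 221 in wild type, again without overlap. The log2 difference was -0.80 (SE 0.28, limma adjusted p = 0.302), and -0.48 without labelled knockdown replicate 1. Ms4a6b, between 11516512 and 11531256 on the plus strand, was at 20.2, 29.9 and 31.93 in labelled knockdown libraries and at 49.9, 31.86 and 40.0 in wild type, so that labelled knockdown replicate 3 and wild-type replicate 2 were almost equal. Its log2 difference was -0.56 (SE 0.22), and -0.36 without labelled knockdown replicate 1.

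Ms4a4c, from 11404770 to 11427246 on the plus strand, was at 8.77, 22.1 and 24.9 adjusted TPM in the labelled knockdown libraries and at 32.3, 24.4 and 36.6 in wild type. Its groups overlapped only through labelled knockdown replicate 3 and wild-type replicate 2. The log2 difference was -0.81 (SE 0.36), and -0.37 without labelled knockdown replicate 1. Ms4a7, a marker of macrophages in mouse tissues, lies from 11321039 to 11336146 on the minus strand. It was at 86.9, 184 and 151 in labelled knockdown libraries and at 194, 183 and 152 in wild type. Apart from labelled knockdown replicate 1, the 2 groups covered the same range, and the log2 difference of -0.38 (SE 0.27) became -0.07 without that library and -0.61 without labelled knockdown replicate 2.

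The neighbouring Ms4a genes were measured alongside. GENCODE M21 places 19 Ms4a genes in 678.6 kb of chromosome 19, of which 11 were tested and 8 were not analysed here. Of these 11, 10 had a lower mean in the labelled knockdown libraries, and none passed the test. Outside the 5 genes above, Ms4a4d was at 29.3, 28.8 and 32.9 adjusted TPM in the labelled knockdown libraries against 37.1, 37.6 and 48.2 in wild type (log2 difference -0.41, SE 0.13), and Ms4a4a at 47.0, 63.6 and 62.9 against 134, 64.6 and 83.4 (-0.64, SE 0.26). Both lacked overlap, although for Ms4a4a the gap between labelled knockdown replicate 2 and wild-type replicate 2 was about 1 rounding step. The B cell gene Ms4a1 had -1.62 (SE 0.70), Ms4a8a -1.09 (SE 0.48) and the T cell gene Ms4a4b -0.27 (SE 0.28). Ms4a14 was the exception at 0.41 (SE 0.24). With Tmem176a and Tmem176b, relatives outside the cluster, 7 of 8 other tested family members had a lower mean (median log2 difference -0.41, or -0.26 without labelled knockdown replicate 1).

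**Figure D3:**
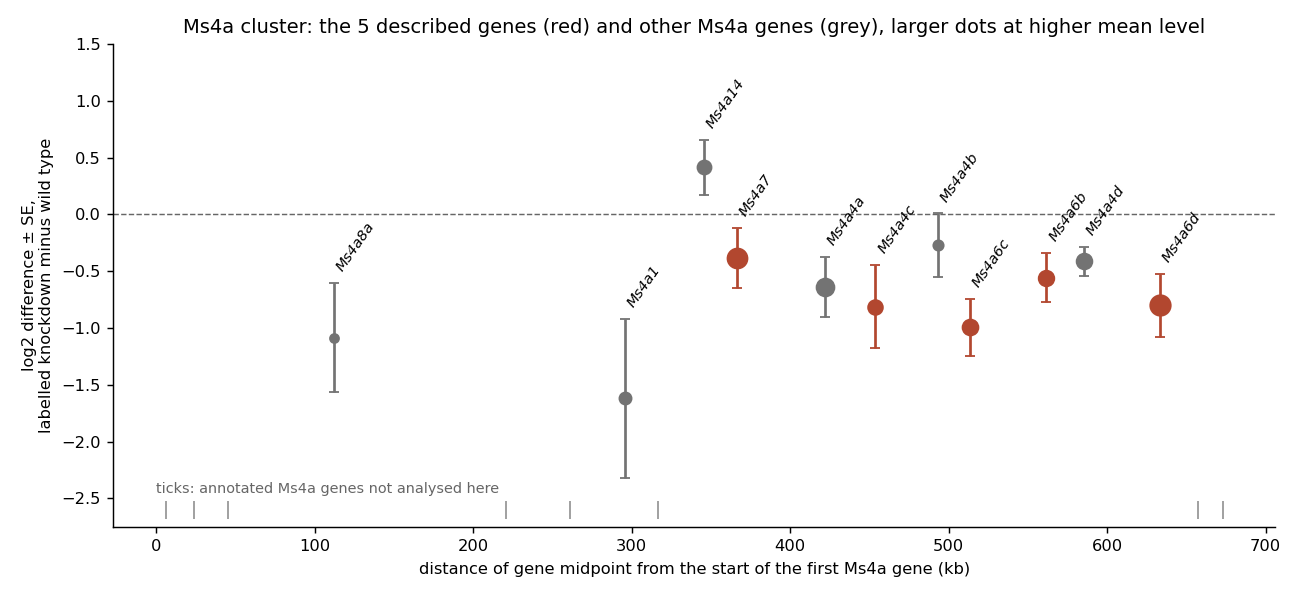
Log2 difference (labelled knockdown minus wild type, bars of 1 SE) of the tested Ms4a genes by distance in kb along the cluster, with the 5 described genes in red, other Ms4a genes in grey, and larger dots for higher mean level. Of the 11 genes, 10 lie below 0 and Ms4a14 lies at 0.41.

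Vcan had the smallest difference of the 10. It encodes versican, a large chondroitin sulfate proteoglycan that binds hyaluronan and is made by fibroblasts as well as monocytes. It lies on chromosome 13 from 89655312 to 89742509 on the minus strand. It was at 25.7, 25.0 and 29.9 adjusted TPM in the labelled knockdown libraries and at 27.4, 22.5 and 35.4 in wild type. The labelled knockdown values all lay inside the wild-type range, and the log2 difference was -0.06 (95% interval -0.45 to 0.34, limma adjusted p = 0.876). That interval still allows a difference in either direction. Fibroblast genes summed to 13060 to 20409 in the labelled knockdown libraries and 18390 to 21532 in wild type, with 5 of 8 lower and a median log2 difference of -0.19 (-0.05 without labelled knockdown replicate 1).

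Nr4a1 encodes a nuclear receptor that patrolling monocytes require and that many cell types switch on within minutes of a stimulus. It lies on chromosome 15 from 101254269 to 101274795 on the plus strand. It was at 30.7, 19.2 and 29.9 adjusted TPM in the labelled knockdown libraries and at 19.5, 26.3 and 12.4 in wild type. The groups overlapped, as labelled knockdown replicate 2 lay below wild-type replicates 1 and 2. The log2 difference was 0.47 (SE 0.29, limma adjusted p = 0.437). It was 0.20 without wild-type replicate 3 and 0.71 without wild-type replicate 2. Its relative Nr4a2 was at 8.06, 7.71 and 6.99 in labelled knockdown libraries and at 3.89, 5.63 and 5.34 in wild type, without overlap (log2 difference 0.54, SE 0.15, limma adjusted p = 0.297). Nr4a3 had 0.38 (SE 0.20). Among the 16 other NR4A and immediate early genes, including Klf2 (0.49) and Egr3 (0.53), 10 had a higher and 6 a lower mean, with a median log2 difference of 0.05. Of these 16, 2 were higher without overlap, beside 12.6% of all genes tested.

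Across the 6 libraries, the 8 genes other than Vcan and Nr4a1 followed a like order. Pearson correlations of their log2 values over the 28 pairs ran from 0.47 to 0.99, with a median of 0.86. For Nr4a1 with the other 9 they ran from -0.73 to -0.41, and for Vcan with the other 9 from -0.60 to 0.64. These are descriptions over 6 libraries that share the group difference and the tissue makeup. Among 10893 other genes with a mean of at least 5, the closest in pattern to Ms4a6c were Rab8b (r = 0.997), B4galt1 (0.997) and Cd200r1 (0.996), and 774 genes exceeded 0.9. The closest to Plac8 were Cep170b (0.997), Sec22b (0.995) and Ifi206 (0.993), with 725 genes above 0.9. For Ly6c2 they were Stk26 (0.996), Map4k1 (0.994) and Zfp503 (0.993), and for Vcan they were Xpot (0.992), Zdhhc21 (0.991) and Ercc4 (0.991).

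Since core macrophage genes were also lower, each gene was set against their mean in the same library. The core macrophage mean, on the log2 scale, was 7.01, 7.82 and 7.75 in the labelled knockdown libraries and 8.32, 7.98 and 7.96 in wild type. Relative to it, Ms4a6c was at -2.84, -2.83 and -2.95 in labelled knockdown libraries and at -2.38, -2.72 and -2.23 in wild type, a difference of -0.43. Ms4a6d was at -0.56, -0.36 and -0.42 in labelled knockdown libraries and at -0.14, -0.32 and -0.16 in wild type, a difference of -0.24. For both genes every labelled knockdown library was below every wild-type library. They were the only 2 of the 10, and 0.214% of all genes tested did the same. No gene of the 10 lay above without overlap, 0 against 49.3% of all genes tested, and the median of all genes on this relative scale was 0.57. Both shares follow in part from the subtraction. The core macrophage mean was itself lower in the labelled knockdown libraries (difference -0.56), which raises any gene that was not lower too. These shares are therefore no fair background for macrophage genes, and the share among such genes was not computed. No test was run on these relative values.

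The remaining genes overlapped on the relative scale. The differences were -0.84 for Chil3, -0.59 for Plac8, -0.25 for Ms4a4c, -0.21 for Ly6c2, 0.005 for Ms4a6b, 0.18 for Ms4a7, 0.50 for Vcan and 1.03 for Nr4a1. Ms4a6b lay well below the core macrophage mean and Ms4a7 nearer to it, at -2.73 ± 0.14 and -0.45 ± 0.14 in labelled knockdown libraries and -2.73 ± 0.19 and -0.63 ± 0.14 in wild type (SD, n = 3 each). With the core macrophage mean as a covariate in the fit, the median log2 difference of the 10 genes was -0.10, and 0 of the 10 had an unadjusted p under 0.05, where 1.07% of all genes were lower at that level. With the heart muscle mean as the covariate the median was -0.23, and 2 of the 10, Plac8 and Ms4a6c, stayed under 0.05, beside 2.27% of all genes.

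**Figure D4:**
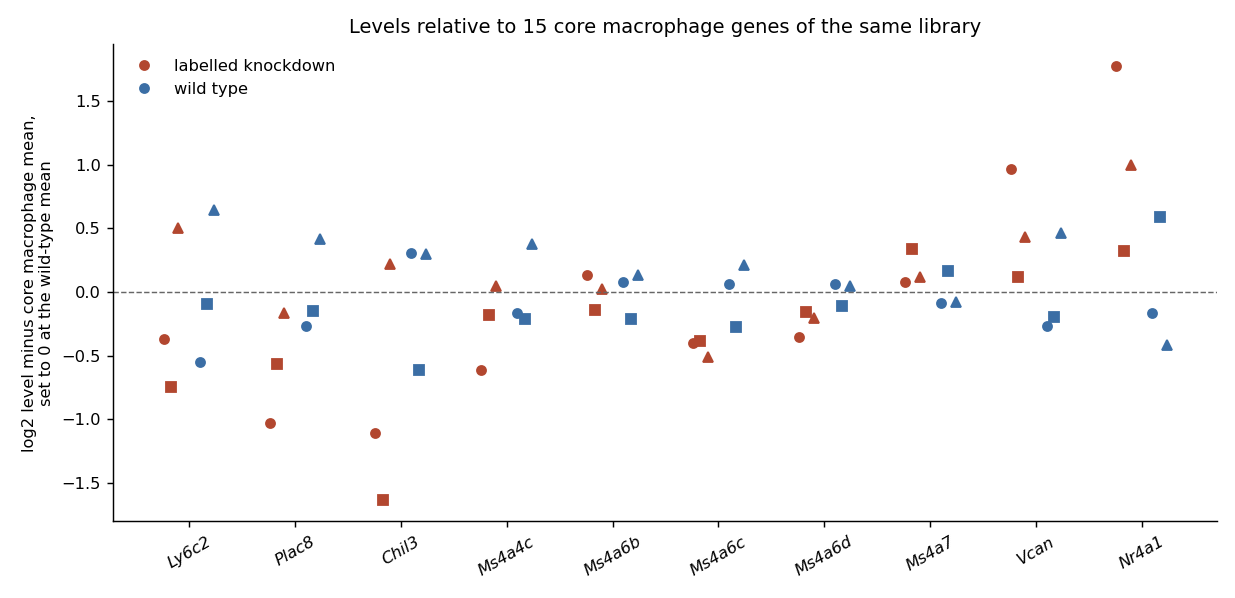
Log2 level of each of the 10 genes minus the mean log2 level of 15 core macrophage genes in the same library, set to 0 at the wild-type mean of each gene. Every labelled knockdown library (red) lies below every wild-type library (blue) for Ms4a6c and Ms4a6d, and the groups overlap for the other 8.

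The near relatives Ms4a6b and Ms4a6c, whose promoter windows are shown above, differed in how far they were apart in each library. Ms4a6b stood at 119.2%, 96.96% and 118.5% of Ms4a6c in the labelled knockdown libraries and at 82.2%, 84.8% and 76.9% in wild type, means of 112 ± 12.6 and 81.3 ± 4.02 (SD, n = 3 each). The 2 groups did not overlap. Ms4a6c was also a smaller share of Ms4a7 in the labelled knockdown libraries, at 19.5%, 16.7% and 17.9%, than in wild type, at 31.2%, 20.5% and 34.3%. Set against Ms4a6d the groups overlapped, at 19.7%, 17.7% and 16.8% in labelled knockdown libraries and at 21.0%, 18.6% and 23.5% in wild type. A ratio within a library is free of a factor shared by all genes of that library. It is not free of an adjustment that varies by gene. In labelled knockdown replicate 1, Ms4a6b and Ms4a6c stood at 17.36 and 14.57 rounding steps, not at whole steps. The ratios therefore describe deposited values, and unequal change of the transcripts was not tested. Reads of BE692007 may also be counted in Ms4a6c, as given above. These pairs were chosen after the values were seen, and of 8 ratios computed 2 lacked overlap, both with Ms4a6c as a term. Those 2 ratios are therefore not independent. How often ratios of any 2 genes lack overlap was not computed. Of single genes tested, 9.88% were lower and 12.6% higher without overlap.

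**Figure D5:**
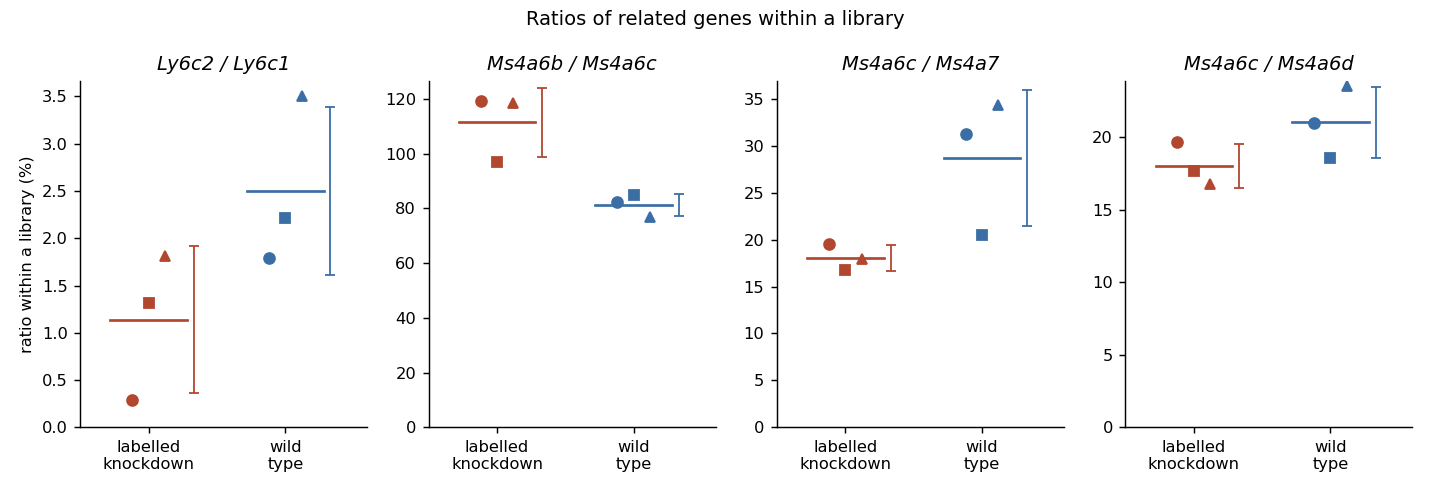
Ratio of related genes within each library in percent (linear axes from 0), with lines at group means and bars of 1 SD (n = 3 each). The Ms4a6b to Ms4a6c ratio is at least 96.96% in the labelled knockdown libraries and at most 84.8% in the wild-type libraries.

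Other genes of classical, inflammatory monocytes had lower means in the labelled knockdown libraries for 23 of 24 tested, with a median log2 difference of -0.58 (22 of 24 and -0.31 without labelled knockdown replicate 1). None of them passed the test. This list shares a gene with the core macrophage list and another with the patrolling monocyte list, so the counts are not independent. The 4 with the smallest p were Smpdl3a (log2 difference -0.52), Ifi204, an interferon-inducible DNA sensor gene (-0.78), Clec4d, a C-type lectin receptor gene (-0.81), and F13a1, the gene of a clotting factor subunit found in monocytes (-1.23). F13a1 was at 17.9, 9.45 and 16.96 adjusted TPM in labelled knockdown libraries and at 42.2, 17.7 and 55.1 in wild type, so that the groups just overlapped. Klf4, a transcription factor gene of monocyte development that endothelial cells also express, was the only 1 with a higher mean, at 67.5, 36.5 and 48.9 against 34.1, 34.7 and 34.0 (log2 difference 0.52).

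Genes of patrolling monocytes were lower for 13 of 19 (median log2 difference -0.23, or -0.11 without labelled knockdown replicate 1), and none passed. The other 6 had a higher mean. Their summed level, all 19 together, was 2653, 948 and 1395 adjusted TPM in labelled knockdown replicates 1, 2 and 3. In wild type it was 1100 to 1287, so that the sum did not follow the direction of most single genes. The genes named next are those with the smallest p, and all of them were lower. Apoc2, an apolipoprotein gene, was at 11.004, 21.2 and 25.9 adjusted TPM in labelled knockdown libraries and at 46.0, 29.998 and 34.7 in wild type. The chemokine receptor gene Cx3cr1 was at 34.1, 46.2 and 45.9 in labelled knockdown libraries and 71.4, 42.1 and 58.0 in wild type, with overlap (log2 difference -0.41), and Clec4a1 (-0.38) and Clec4a3 (-0.51) overlapped as well. Other Ly6 genes were lower for 6 of 9 (median -0.24), among them Ly6d (-1.54) and Ly6e (-0.32), with Gpihbp1, an endothelial gene, at 0.65. Partners of versican and hyaluronan were lower for 8 of 13 (median -0.31, or -0.16 without labelled knockdown replicate 1), with Adamts4, a protease gene for versican, at 8.35, 7.64 and 7.98 in labelled knockdown libraries and 13.7, 9.39 and 19.3 in wild type. Acan had -0.84, Fbln2 -0.49 and Adamts15 -1.14.

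Markers of other cells were measured beside the 10 genes. Neutrophil genes were lower for 9 of 9 tested, with summed levels of 33.3 to 83.8 adjusted TPM in the labelled knockdown libraries and 53.2 to 140.5 in wild type (median log2 difference -0.76, or -0.46 with 7 of 9 lower without labelled knockdown replicate 1), led by Lcn2 (-1.05), Trem1 (-0.99), Il1r2 (-0.69) and Mmp9 (-1.35). B cell genes were lower for 7 of 7 (median -1.39), with Ighm (-2.96), Cd79a (-1.86) and Igkc (-1.27) besides Ms4a1, and Pax5 at 0 in some libraries. T and natural killer cell genes were lower for 8 of 9 (median -0.27, or -0.01 with 5 of 9 lower without labelled knockdown replicate 1), with sums of 30.3 to 75.9 in labelled knockdown libraries and 49.7 to 72.2 in wild type. Dendritic cell genes were lower for 2 of 7 (median 0.25, or 0.41 with 1 of 7 lower without labelled knockdown replicate 1), with sums of 52.0 to 66.9 in labelled knockdown libraries and 39.2 to 57.3 in wild type. Adipocyte genes summed to 4.78, 11.7 and 1443 in labelled knockdown replicates 1, 2 and 3 and to 482 to 1368 in wild type (5 of 5 lower, median -3.05, or -2.01 without labelled knockdown replicate 1), with Cidec and Plin1 at 0 in some libraries. None of these genes passed the test, and their part in the levels of the 10 genes was not tested.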

How the data were processed

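RNA sequencing libraries of mouse myocardium were prepared from poly(A) RNA; the labels' protocols name 2 kits without assigning them. Per the submitters' processing notes, reads were placed on mm10. The sources used here name no aligner, quantifier or annotation. The authors deposited 1 table whose name says TPM, but the deposited values behave as an adjusted score: columns sum to between 901563 and 1159657, not 1000000, and low values lie near whole multiples of a step of 0.889 to 1.163 (below 3.5 steps, 97.6% to 100% within 0.15 steps). No count model was used, and depth is unknown.

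Where a symbol occurred more than once, the row of highest mean was used (6 rows left out). Values were analysed as log2(value + 1), which understates changes of low genes, for genes with a mean of at least 1, using limma 3.58.1 with an intensity trend in R 4.3.3, no covariate, and Benjamini-Hochberg adjustment at 0.05 over all 14025 genes. The test was planned for TPM. The fit was tested on simulated data. Coordinates and coding sequences are from GENCODE M21 and promoter windows from RefSeq, both of the same build. The 10 genes, the lists (other Ms4a, other Ly6, classical and patrolling monocyte, chitinase-like, NR4A and immediate early, versican partners, and markers of core macrophages, neutrophils, B cells, T and natural killer cells, endothelium, fibroblasts, heart muscle, adipocytes and dendritic cells) and the alternatives were chosen with earlier results of these data known. Named genes are the 10, Itih5, up to 4 per list with the smallest p, and the 3 closest in pattern to each of 4 genes, while Klf4, Pax5 and Plin1 and the neighbours BE692007, Ms4a14, Tmem176a and Tmem176b were named after values were seen. The promoter likeness was noticed on reading the windows and then measured.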

Additional observations from a re-analysis of the deposited data

How the results depend on the processing

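No alternative made any of the 10 genes pass: their adjusted p ran from 0.161 to 0.9955 over the alternatives run. Lower means were found for 8 or 9 of the 10 under each of them. Over all genes, 0 passed (2081 at an unadjusted p under 0.05), and leaving out single libraries gave 0 to 13. The median log2 difference of the 10 genes, -0.78, was -0.10 with the core macrophage covariate and -0.23 with the heart muscle covariate, and -1.0004 to -0.397 with single libraries left out. Signs turned for Ms4a7 (0.24), Itih5 (-0.13) and Ly6c1 (-0.17) with the core macrophage covariate. They also turned for Vcan with the heart muscle covariate (0.038) and without wild-type replicate 3 (0.11, within a leave-one-out range of -0.21 to 0.11). The cause was not tested. Rescaling columns to 1000000 moved the median of all genes from 0.005 to -0.13, without turning the sign of any of the 10. At an unadjusted p under 0.05, 1162 genes were higher and 919 lower; after rescaling 460 were higher and 1389 lower, and with mitochondrial genes left out 1469 were higher and 639 lower. With the replicate number as a block 0 genes passed, and 7 of the 10 (5.45% of all genes) were lower at an unadjusted p under 0.05, against 5 (6.55%) without it. Deviations of same-numbered libraries correlated at 0.056, 0.061 and 0.143, against -0.109 to 0.06 for libraries of different number. For each labelled knockdown library the same-numbered wild-type library correlated highest, though for replicate 2 only by 0.061 against 0.06. These small correlations did not settle whether numbers pair libraries, and the main fit had no block. With the block, Ly6c2 had an SE of 0.19 (limma unadjusted p = 0.00575, adjusted p = 0.285), against 0.42 (limma unadjusted p = 0.113) without it. Differences relative to core macrophage genes moved by less than the pooled SD of both groups under the 12 alternatives computed for them. Among them, that of Ly6c2 (-0.21) turned positive with a pseudocount of 5 (0.07) and without labelled knockdown replicate 2 (0.07) or wild-type replicate 3 (0.12), and that of Ms4a6b (0.005) ran from -0.10 to 0.08. Rounding steps limit what Ly6c2 and Chil3 can show.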
